A study of Mus musculus with 16 samples.

Results

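Blood vessel genes of the embryonic mouse brain are described here across 16 arrays: 36 genes that mark endothelial cells, which line the vessels, or the mural cells (pericytes and smooth muscle) wrapped around them. The list is one of gene names with no threshold on measured values, but it was drawn up with earlier results of these data known. Every probe of the array that is annotated to a member was examined. A total of 35 members had a probe, with 62 probes among them, out of 19057 genes with a probe in the series. Slc7a5, an amino acid carrier of the barrier endothelium, is not listed with a probe here and was not analysed here.

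The samples were brains of mouse embryos at embryonic day 18 in the NOR/CD-1 strain, 8 from HeCo mutants and 8 labelled wild type. The gene mutated in HeCo mice is Eml1, whose protein binds microtubules, and the mice develop heterotopia, a mass of neurons that settle below the cortex. The comparison asks how RNA levels in brain differ between HeCo and wild type. Total RNA had been extracted with a column kit, amplified into biotin-labelled cRNA and hybridised to Illumina bead arrays in 1 colour. The labels name the tissue only as brain, so how much of the brain was taken is not given. They do not say whether each sample came from a separate embryo, so the p-values measure the spread between these samples only.

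Brain endothelial cells form the blood-brain barrier: tight junctions seal the cells to each other, and carriers in their membranes pass glucose, thyroid hormone and lipids into the brain. SOX7, SOX17 and SOX18, the SoxF group of transcription factors, act in endothelial cells during vessel growth and in arteries and veins. Pericytes are drawn to new vessels by PDGF-B released from endothelial cells and are needed for the barrier to form in the embryo.

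Signals were background-corrected, quantile-normalized and put on the log2 scale, and a probe was kept if its detection p-value was under 0.05 on at least 8 of the 16 arrays. The mean deposited signal per array ran from 374.9 to 597.9, and 17694 to 19553 of 45281 probes were detected. The brighter Eml1 probe was detected on 8 of 8 wild-type and 0 of 8 HeCo arrays (log2 signal 8.51 ± 0.15 and 4.51 ± 0.08, SD, n = 8 each). A second Eml1 probe went the other way and was detected on 0 of 8 wild-type and 8 of 8 HeCo arrays (4.57 ± 0.09 and 6.51 ± 0.37, SD, n = 8 each). Arrays are named by the number in their title. Wild type holds 1 to 4 and 9 to 12, and HeCo the rest, and what the numbers stand for is not given. Both 1 to 8 and 9 to 16 hold 4 arrays of each genotype, so for some genes differences are also given within them. Each run of 4 holds 1 genotype only. HeCo 7 and HeCo 16 stood apart: the mean of 17 marker genes of the diencephalon, midbrain and hindbrain differed there from the wild-type mean by -2.41 and -2.09 on the log2 scale, so results are also given without them. Wild type 10 held the lowest value of 16.1% and the highest of 16.8% of all 10624 genes tested, the largest shares of any array for both.

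Of the 36 members, 29 had a kept probe and were tested, and 27 of these were detected on all 16 arrays. Among the members, the markers Pecam1, Cdh5 and Cldn5 of endothelium and Pdgfrb and Rgs5 of pericytes were detected on 16 of 16 arrays. The pericyte probes were dim, with detection p-values of up to 0.032 for Pdgfrb (HeCo 14) and 0.026 for Rgs5 (wild type 10). Kdr, the main VEGF receptor of endothelium, was not detected on all 16. Its probes were detected on 3 of 16 arrays (1 wild type and 2 HeCo) and on 1 wild-type array. The lymphatic VEGF receptor Flt4 had 3 probes, of which 1 was detected on 1 HeCo array and the others on none. The endothelial transcription factor Erg, the barrier efflux pumps Abcb1a and Abcg2 and the pericyte peptidase Anpep were detected on 0 of 16 arrays. These 6 genes were not tested, and a probe near background says nothing about whether the gene is transcribed. One member does not belong by function: Cspg5 encodes neuroglycan C, a proteoglycan of neural cells, whereas the pericyte proteoglycan NG2 is encoded by Cspg4. Cspg5 is kept below because the list holds it.

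No vessel gene of the list was called different between HeCo and wild-type brain. The differences, HeCo minus wild type, were positive for 16 genes and negative for 13, with a median of 0.00258 on the log2 scale against -0.00515 over all 10624 genes tested. None of the 29 passed an adjusted p of 0.05 in the limma fit over all genes, which 0.0565% of all genes did (0.0377% on the higher side and 0.0188% on the lower side in HeCo). Of the 39 kept member probes, 0 passed in the limma fit over all kept probes, which 0.0863% of those did. The smallest limma adjusted p among members was 0.508. At an unadjusted limma p under 0.05, 4 of 29 members (13.8%) stood beside 7.22% of all genes. Sox7 and Sox18 were the 2 on the lower side (3.37% of all genes) and the carriers Slc2a1 and Slco1c1 the 2 on the higher side (3.85%). In all 29 the arrays of the groups overlapped, and 0.113% of all genes had groups without overlap. The mean of the 29 members on each array, set against the wild-type mean, ran from -0.17 to 0.14 in wild type and from -0.14 to 0.12 in HeCo. In bulk brain, fewer vessel cells and less RNA per vessel cell cannot be told apart.

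**Figure D1:**
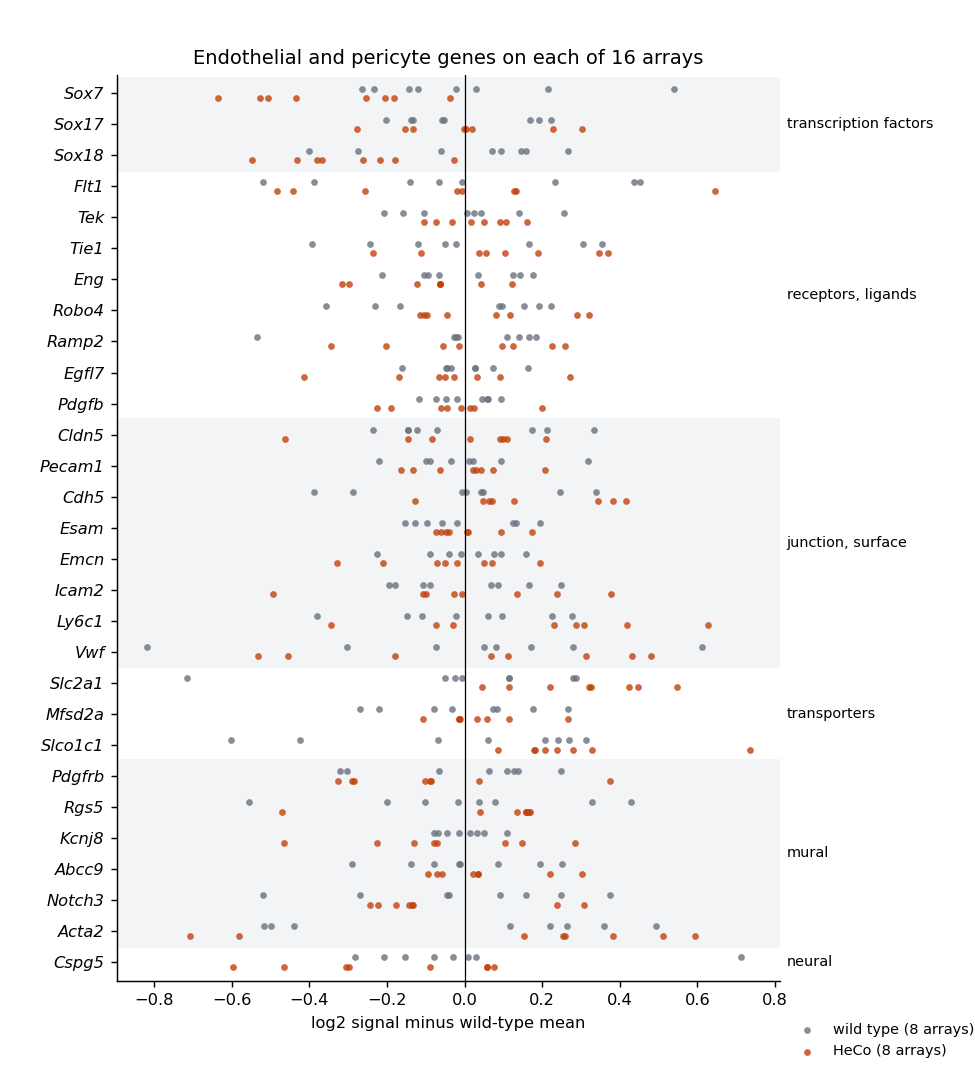
Signals of the 29 tested members on each array, as log2 signal minus the gene's wild-type mean (x axis), with 8 wild-type arrays in grey and 8 HeCo arrays in orange and genes grouped by role. Points of both groups overlap in all 29 rows. All 8 orange points lie left of 0 for Sox7 and Sox18 and right of 0 for Slc2a1 and Slco1c1.

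The size of change that these arrays leave possible is bounded by the 95% intervals of the differences. The farthest bound of any member was 0.58 on the log2 scale, that of Sox7, or 1.49-fold. All 29 intervals lay within 1.5-fold in either direction and 14 of them within 1.2-fold. These intervals are not adjusted for the number of genes, and fold changes of dim probes are understated by the added offset of 16. The spread within a group had a median SD of 0.22 over members and of 0.18 over all genes.

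**Figure D2:**
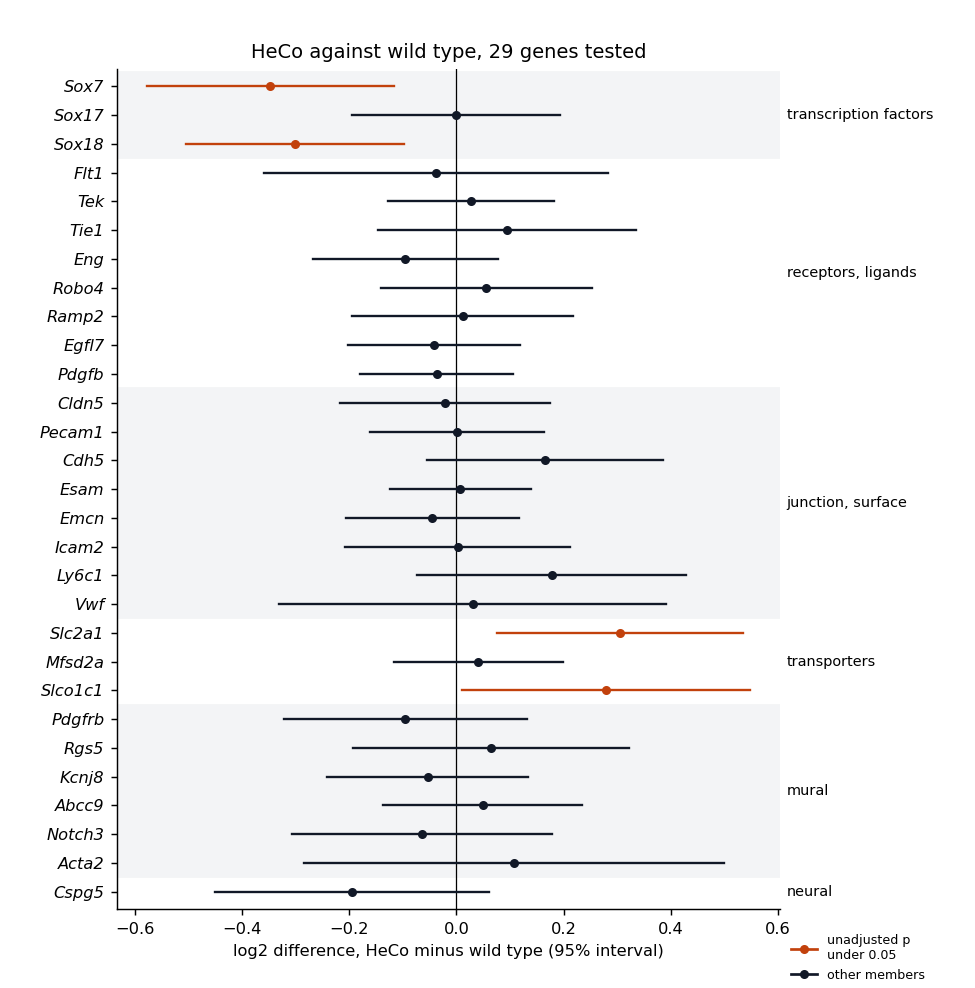
Log2 difference (HeCo minus wild type) of each tested member with its 95% interval from the limma fit (8 arrays a group), in orange where the unadjusted p was under 0.05. The intervals of 25 of 29 members hold 0, and no bound is farther from 0 than 0.58.

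Of the SoxF transcription factors, Sox7 and Sox18 had lower means in HeCo, neither past the adjusted threshold, and Sox17 had nearly equal means. Sox7 ran from 7.01 to 7.82 in wild type (median 7.20) and from 6.64 to 7.24 in HeCo (median 6.93). All 8 HeCo arrays lay under the wild-type mean and 4 of them under every wild-type array, while HeCo 7, the highest of them, exceeded the wild-type median. Wild type 11 and wild type 12 were the highest arrays. The difference was -0.35 (SE 0.11, 95% interval -0.58 to -0.12, limma adjusted p = 0.508). Its other probes did not give the same size: the differences were -0.18 (SE 0.11) and -0.00339 (SE 0.11), both on dimmer probes. The probe with -0.00339 is annotated to another transcript record than the other Sox7 probes. It was detected on 7 of 8 wild-type and 8 of 8 HeCo arrays. With the mean of the kept probes standing for the gene, the Sox7 difference was -0.18.

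Sox18, whose mouse mutants have vessel and coat defects, ran from 6.71 to 7.38 in wild type (median 7.20) and from 6.57 to 7.09 in HeCo (median 6.80). All 8 HeCo arrays were under the wild-type mean and 2, HeCo 5 and HeCo 6, under every wild-type array; wild type 1, wild type 2 and wild type 9 lay within the HeCo range. The difference was -0.30 (SE 0.10, 95% interval -0.51 to -0.10, limma adjusted p = 0.525). Sox17, which acts in arterial endothelium, ran from 6.17 to 6.59 in wild type (median 6.32) and from 6.09 to 6.67 in HeCo (median 6.37). Here HeCo arrays lay on both sides, 4 above and 4 below the wild-type mean, and HeCo 7 was the highest and HeCo 16 the lowest of the 16. Its difference was -0.00151 (SE 0.09, 95% interval -0.20 to 0.19), and 0.06 (SE 0.12) on its other probe. Whether the 3 genes differ from each other in their response was not tested.

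Without HeCo 7 and HeCo 16 the differences were -0.42 for Sox7 and -0.34 for Sox18. Among title numbers 1 to 8 they were -0.22 and -0.24, and among 9 to 16 they were -0.48 and -0.36. Sox18 stayed between -0.36 and -0.19 over all alternatives run, and Sox7 between -0.54 and -0.15.

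**Figure D3:**
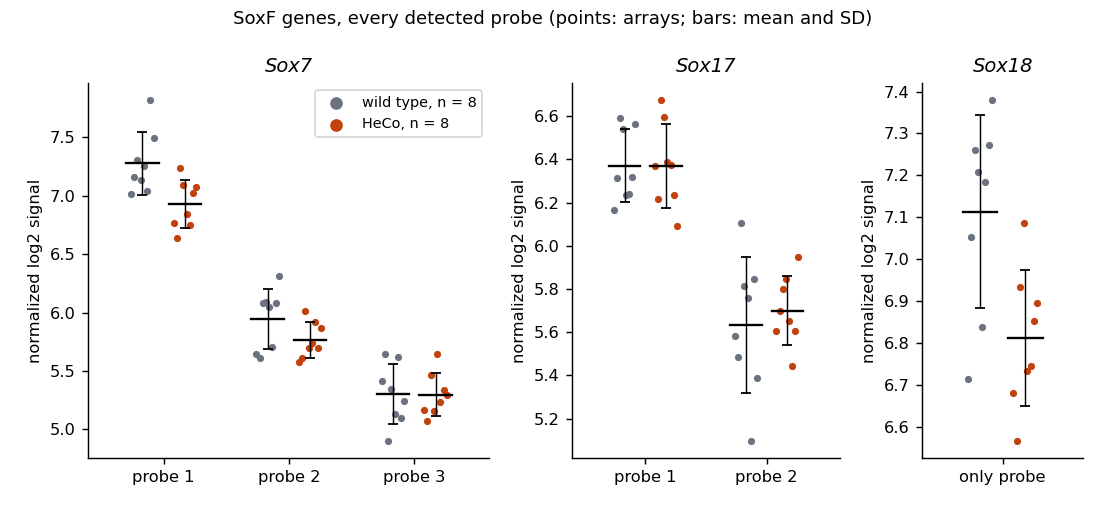
Log2 signal of each kept probe of Sox7, Sox17 and Sox18 (brightest probe first) on 8 wild-type arrays (grey) and 8 HeCo arrays (orange), with the mean of each group. The HeCo mean is lower on the brightest Sox7 probe (6.93 against 7.28) and on the Sox18 probe (6.81 against 7.11), and nearly equal on the third Sox7 probe (both 5.30) and the brighter Sox17 probe (both 6.37).

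Of 8 pairs of members compared from array to array, Sox17 and Sox18 had the highest correlation, which missed the adjusted threshold. Over 16 arrays, after the mean of each genotype was removed, their correlation was r = 0.61 (permutation p = 0.0132, adjusted 0.0526 over 8 pairs) and rho = 0.64 (permutation p = 0.00863, adjusted 0.069). Within wild type r was 0.75 and within HeCo 0.48 (8 arrays each). Without HeCo 7 and HeCo 8, the arrays farthest from the median of Sox17, r was 0.53. Without HeCo 7 and HeCo 16 it was 0.75 (adjusted permutation p = 0.0297 over the same 8 pairs).

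Of the barrier carriers, Slc2a1 and Slco1c1 had higher means in HeCo, neither past the adjusted threshold. Bulk brain does not show in which cells their signals arose. Slc2a1 encodes GLUT1, the glucose carrier of the barrier endothelium. It ran from 10.8 to 11.8 in wild type (median 11.6) and from 11.6 to 12.1 in HeCo (median 11.9). All 8 HeCo arrays lay above the wild-type mean and 5 above every wild-type array; HeCo 13, HeCo 14 and HeCo 16 lay within the wild-type range, and wild type 10, at 10.8, lay apart from the next wild-type array at 11.5. The difference was 0.31 (SE 0.11, 95% interval 0.08 to 0.54, 1.24-fold, limma adjusted p = 0.603). It was 0.20 without wild type 10, 0.30 without HeCo 7 and HeCo 16, and 0.19 without all 3 arrays. Among title numbers 1 to 8 it was 0.18 and among 9 to 16, where wild type 10 falls, 0.43.

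Slco1c1 encodes OATP1C1, a thyroxine carrier of the mouse barrier. It ran from 4.89 to 5.80 in wild type (median 5.62) and from 5.57 to 6.22 in HeCo (median 5.71). All 8 HeCo arrays lay above the wild-type mean and 2, HeCo 7 and HeCo 8, above every wild-type array; the lowest arrays were wild type 10, where the probe was not detected, and wild type 9. The difference was 0.28 (SE 0.13, 95% interval 0.01 to 0.55, limma adjusted p = 0.675). It was 0.19 without wild type 10, 0.22 without HeCo 7 and HeCo 16, and 0.13 without all 3. Without background correction, which moved it most, it was 0.11 (SE 0.05). The unadjusted limma p was under 0.05 in 17 of the 31 settings that gave a value. Mfsd2a, a lysolipid carrier that also keeps vesicle transport across the endothelium low, had a difference of 0.04 (SE 0.08, 95% interval -0.12 to 0.20), with 4 HeCo arrays on each side of the wild-type mean. It ran from 10.1 to 10.7 in wild type (median 10.4) and from 10.3 to 10.7 in HeCo (median 10.4), so the groups covered nearly the same range.

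**Figure D4:**
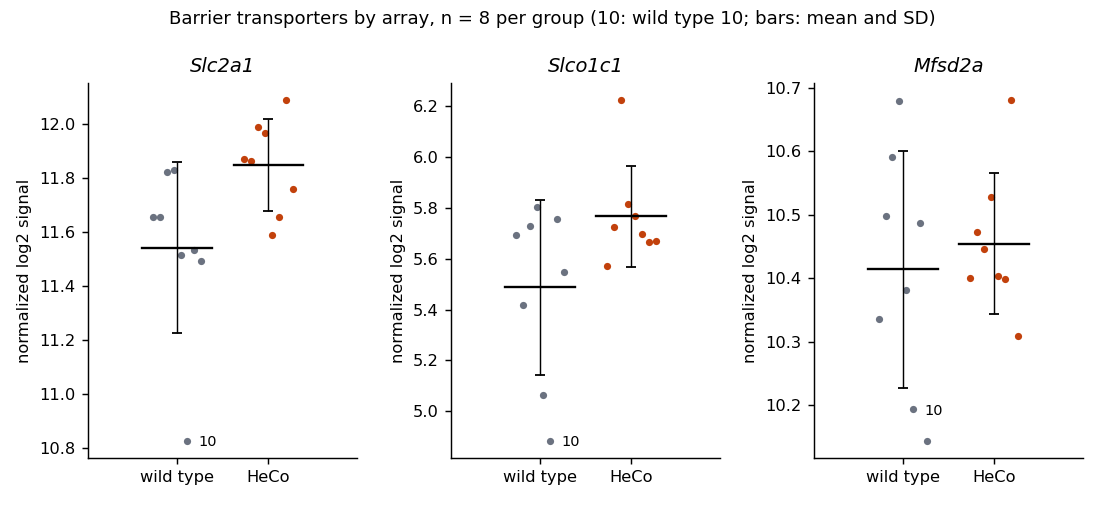
Log2 signal of Slc2a1, Mfsd2a and Slco1c1 on 8 wild-type arrays (grey) and 8 HeCo arrays (orange), with the mean of each group. The Slc2a1 value of wild type 10 (10.8) lies apart below the other wild-type arrays, and that of Slco1c1 on HeCo 7 (6.22) apart above the other HeCo arrays.

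The 250 bases before the start of these carriers are shown because Slc2a1 and Slco1c1 lay on the same side in HeCo. They are RefSeq sequence of GRCm38.p6, plus strand, chr4:119108495-119108744 for Slc2a1 and chr6:141524104-141524353 for Slco1c1, and end at the base before the annotated start of the transcript. Capitals mark every match to GGAAG and to ACGTG, both searched on either strand. GGAAG is a form of the core of the sites bound by ETS factors, a family that acts in all endothelium. ACGTG is a form of the core of the hypoxia response element. Other forms of these cores were not searched and are not marked.
Slc2a1: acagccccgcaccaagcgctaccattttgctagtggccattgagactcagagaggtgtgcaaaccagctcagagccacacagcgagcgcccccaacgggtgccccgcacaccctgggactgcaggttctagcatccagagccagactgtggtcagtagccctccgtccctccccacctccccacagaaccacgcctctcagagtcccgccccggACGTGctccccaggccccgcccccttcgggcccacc
Slco1c1: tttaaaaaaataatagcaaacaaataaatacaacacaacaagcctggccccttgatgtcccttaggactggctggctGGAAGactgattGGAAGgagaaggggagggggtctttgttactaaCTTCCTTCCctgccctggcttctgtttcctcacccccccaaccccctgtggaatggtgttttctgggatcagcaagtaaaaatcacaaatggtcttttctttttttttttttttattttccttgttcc
Slc2a1 held 1 ACGTG, which began 36 bases before the start, and no GGAAG. Slco1c1 held 4 GGAAG, of which 2 on the plus strand began 173 and 161 bases before the start and 2 on the minus strand, which share a base, 128 and 124 bases before it, and it held no ACGTG. Of 32851 RefSeq windows of this length, 64.1% hold GGAAG and 16.6% hold ACGTG. Of the 36 members, 23 were matched to the table, with 30 windows, of which 20 (66.7%) hold GGAAG and 3 (10.0%) hold ACGTG. A match describes the letters and not a bound site.

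Junction and surface genes of endothelium were all 8 tested, and 6 of the differences were positive and 2 negative, with none at an unadjusted limma p under 0.05. Claudin 5 (Cldn5), the main claudin of the barrier's tight junctions, ran from 11.6 to 12.1 in wild type (median 11.7) and from 11.3 to 12.0 in HeCo (median 11.8). The groups overlapped along nearly their whole range, with HeCo 15 lowest and wild type 4 highest, and the difference was -0.02 (SE 0.09, 95% interval -0.22 to 0.17). Wild type 2 to 4, HeCo 5 to 8 and HeCo 16 lay above the wild-type mean. Wild type 1, wild type 9 to 12 and HeCo 13 to 15 lay under it. Pecam1 (CD31), an adhesion molecule between endothelial cells, ran from 7.05 to 7.59 in wild type (median 7.26) and from 7.11 to 7.48 in HeCo (median 7.30). Every HeCo array lay inside the wild-type range, and the difference was 0.00151 (SE 0.08, 95% interval -0.16 to 0.16).

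VE-cadherin (Cdh5), which joins endothelial cells at adherens junctions, ran from 5.98 to 6.71 in wild type (median 6.39) and from 6.24 to 6.78 in HeCo (median 6.47). A total of 7 of 8 HeCo arrays lay above the wild-type mean and 3 above every wild-type array, with wild type 1 lowest. The difference was 0.17 (SE 0.11, 95% interval -0.05 to 0.39), but -0.03 on the other Cdh5 probe. Ly6c1, a surface protein of brain endothelium, ran from 6.33 to 6.99 in wild type (median 6.73) and from 6.36 to 7.33 in HeCo (median 6.97). Here 4 HeCo arrays lay above every wild-type array and 3 under the wild-type mean, and the difference was 0.18 (SE 0.12, 95% interval -0.07 to 0.43). The arrays under the wild-type mean were wild type 1 to 4 and HeCo 6 to 8, all of title numbers 1 to 8. Every array of title numbers 9 to 16 lay above it. Ly6c1 has a near-identical copy, Ly6c2, from which a probe may not tell it apart.

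Von Willebrand factor (Vwf), stored by endothelium for clotting, varied most of all members, 2.69-fold over the 16 arrays from wild type 1 to wild type 4. It ran from 5.60 to 7.03 in wild type (median 6.49) and from 5.89 to 6.90 in HeCo (median 6.51), with every HeCo array inside the wild-type range, and its difference was 0.03 (SE 0.17, 95% interval -0.33 to 0.39). The junction protein Esam varied least, 1.27-fold over the 16 arrays. It ran from 10.1 to 10.4 in both groups, and its difference was 0.00724 (SE 0.06, 95% interval -0.12 to 0.14). The sialomucin Emcn ran from 7.59 to 7.97 in wild type (median 7.83) and from 7.48 to 8.01 in HeCo (median 7.78), a difference of -0.05 (SE 0.08, 95% interval -0.21 to 0.12). The adhesion molecule Icam2 ran from 8.31 to 8.75 in wild type (median 8.49) and from 8.01 to 8.88 in HeCo (median 8.49), a difference of 0.00258 (SE 0.10, 95% interval -0.21 to 0.21). For both genes HeCo 16 was the highest array, and both the highest and the lowest of the 16 were HeCo arrays.

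Receptors and secreted signals of the vessel wall had 8 of 10 genes tested, with 4 differences positive and 4 negative, from -0.10 to 0.09, and none at an unadjusted limma p under 0.05. The VEGF receptor Flt1, which traps VEGF, ran from 7.08 to 8.06 in wild type (median 7.57) and from 7.12 to 8.25 in HeCo (median 7.59). HeCo 15 was highest and wild type 10 lowest, and the difference was -0.04 (SE 0.16, 95% interval -0.36 to 0.28). The angiopoietin receptor Tek (TIE2) ran from 7.10 to 7.56 in wild type (median 7.32) and from 7.20 to 7.47 in HeCo (median 7.34). All 8 HeCo arrays lay inside the wild-type range, and its difference was 0.03 (SE 0.07, 95% interval -0.13 to 0.18). The related receptor Tie1 was near the detection limit, detected on 5 of 8 wild-type and 7 of 8 HeCo arrays. It ran from 4.76 to 5.50 in wild type (median 5.11) and from 4.91 to 5.52 in HeCo (median 5.23), with a difference of 0.09 (SE 0.12, 95% interval -0.15 to 0.33). A total of 6 HeCo arrays lay above the wild-type mean, 1 of them above every wild-type array.

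Endoglin (Eng), a co-receptor for TGF-beta and BMP ligands on endothelium, ran from 6.20 to 6.59 in wild type (median 6.39) and from 6.09 to 6.53 in HeCo (median 6.35). A total of 6 HeCo arrays lay under the wild-type mean and 2 under every wild-type array, and the difference was -0.10 (SE 0.08, 95% interval -0.27 to 0.08). The endothelial receptor Robo4 ran from 7.47 to 8.05 in wild type (median 7.92) and from 7.71 to 8.15 in HeCo (median 7.85). HeCo 5 to HeCo 8 all lay above the wild-type mean and HeCo 13 to HeCo 16 all below it. The difference was 0.06 (SE 0.10, 95% interval -0.14 to 0.25).

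Ramp2, the partner of the adrenomedullin receptor, ran from 10.0 to 10.7 in wild type (median 10.6) and from 10.2 to 10.8 in HeCo (median 10.6). Wild type 1 lay apart at 10.0, with the next wild-type array at 10.5, and the difference was 0.01 (SE 0.10, 95% interval -0.19 to 0.22). The secreted factor Egfl7 ran from 9.74 to 10.1 in wild type (median 9.90) and from 9.49 to 10.2 in HeCo (median 9.86). HeCo arrays spread wider, with HeCo 15 lowest and HeCo 16 highest of all, and the difference was -0.04 (SE 0.08, 95% interval -0.20 to 0.12), and -0.00487 (SE 0.11) on its other kept probe. Pdgfb, the endothelial signal to pericytes, ran from 7.31 to 7.52 in wild type (median 7.44) and from 7.21 to 7.63 in HeCo (median 7.40). The wild-type range lay inside that of HeCo, with HeCo 6 lowest and HeCo 13 highest, and the difference was -0.04 (SE 0.07, 95% interval -0.18 to 0.11).

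Mural genes had 6 of 7 members tested, with 3 differences positive and 3 negative, none at an unadjusted limma p under 0.05. Pdgfrb, the receptor through which pericytes read PDGF-B, ran from 5.20 to 5.77 in wild type (median 5.61) and from 5.20 to 5.90 in HeCo (median 5.43). A total of 6 HeCo arrays lay under the wild-type mean, while HeCo 8 was the highest of all 16, and the difference was -0.10 (SE 0.11, 95% interval -0.32 to 0.13). Rgs5, a regulator of G protein signalling and pericyte marker, ran from 5.32 to 6.30 in wild type (median 5.88) and from 5.41 to 6.04 in HeCo (median 6.03). A total of 7 HeCo arrays lay close together above the wild-type mean and HeCo 14 lay apart at 5.41, and the difference was 0.06 (SE 0.12, 95% interval -0.19 to 0.32).

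Kcnj8 and Abcc9 encode the pore and the sulfonylurea receptor of the ATP-sensitive potassium channel of pericytes. Kcnj8 ran from 6.41 to 6.60 in wild type (median 6.49) and from 6.03 to 6.78 in HeCo (median 6.42), a narrow range in wild type inside a wider one in HeCo. Its difference was -0.05 (SE 0.09, 95% interval -0.24 to 0.13). Abcc9 ran from 5.40 to 5.94 in wild type (median 5.68) and from 5.59 to 5.99 in HeCo (median 5.72), a difference of 0.05 (SE 0.09, 95% interval -0.14 to 0.23). HeCo 15 was the highest array for both genes, and HeCo 6 the lowest for Kcnj8. Over 16 arrays, with genotype means removed, the pair had r = 0.55 (permutation p = 0.00916, adjusted 0.0526 over 8 pairs) and rho = 0.48 (permutation p = 0.0668, adjusted 0.267). Within wild type r was 0.18 and within HeCo 0.86 (8 arrays each). Without HeCo 6 and HeCo 15, the arrays farthest from the median of Kcnj8, r was 0.37, for which no p was computed. Without background correction the adjusted permutation p of r was 0.0435, both for this pair and for Sox17 and Sox18. The Notch receptor of mural cells, Notch3, ran from 6.20 to 7.10 in wild type (median 6.75) and from 6.48 to 7.03 in HeCo (median 6.58). Every HeCo array lay inside the wild-type range, 6 of them under its mean, and the difference was -0.06 (SE 0.12, 95% interval -0.31 to 0.18).

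Smooth muscle actin (Acta2) had the widest spread within groups of all members, an SD of 0.45. It ran from 8.71 to 9.71 in wild type (median 9.39) and from 8.51 to 9.82 in HeCo (median 9.48). Both groups held low and high arrays, with HeCo 6 lowest and HeCo 16 highest, and the difference was 0.11 (SE 0.19, 95% interval -0.28 to 0.50). Its other kept probes gave 0.19, 0.05 and 0.17. Cspg5, the neural proteoglycan, ran from 9.78 to 10.8 in wild type (median 10.0) and from 9.47 to 10.1 in HeCo (median 9.87). A total of 4 HeCo arrays lay under every wild-type array, wild type 10 lay apart as the highest, and the difference was -0.20 (SE 0.12, 95% interval -0.45 to 0.06). It was -0.09 without wild type 10, -0.08 without HeCo 7 and HeCo 16, and 0.02, with the sign turned, without all 3. Cspg4, looked up for its name, had a difference of -0.08 (SE 0.11).

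The other 6 pairs tested for going together across arrays had adjusted permutation p-values of 0.587 or more. Cdh5 and Pecam1 (r = -0.27) and Tek and Tie1 (r = -0.29) had negative r. Cldn5 and Slc2a1 had r = 0.24, Pdgfb and Pdgfrb 0.22, Cspg5 and Pdgfrb 0.16 and Pdgfrb and Rgs5 -0.07, each over 16 arrays. Within wild type and within HeCo (8 arrays each), r was 0.48 and -0.16 for Cldn5 and Slc2a1. It was 0.68 and -0.01 for Pdgfb and Pdgfrb, and -0.48 and 0.44 for Pdgfrb and Rgs5. For Cspg5 and Pdgfrb it was 0.22 and 0.09, for Cdh5 and Pecam1 -0.39 and -0.08, and for Tek and Tie1 -0.19 and -0.49. Whether r differed between the genotypes was not tested for any pair. Over all 406 pairs of members the median r was 0.17, and over all pairs of genes tested it was 0.000527. The 15 pairs of mural members had a median r of 0.32, the 231 pairs of endothelial members 0.21, and the 105 pairs of meningeal marker genes 0.47. These are descriptions over 16 shared arrays, and genes are not independent replicates.

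Single arrays held many of the extremes. HeCo 6 was the lowest array for 6 of 29 members (20.7%, against 9.95% of all genes tested), Sox7, Sox18, Pdgfb, Emcn, Kcnj8 and Acta2. Wild type 1 was lowest for 5 (17.2%, against 5.93%), which were Robo4, Ramp2, Cdh5, Vwf and Notch3. Wild type 10 was lowest for 5 (17.2%, against 16.1%), among them Slc2a1 and Slco1c1, and HeCo 15 was highest for 5 (17.2%, against 12.9%).

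The genes that act on brain vessels from outside the member list gave no call either. Of 13 tested genes of VEGF, angiopoietin and Notch signalling, 0 passed the adjusted threshold, 10 differences were positive and the median was 0.03. Vegfa, the main growth signal for vessels, had a difference of 0.16 (SE 0.10), and the TIE2 ligand Angpt1 one of 0.15 (SE 0.08). Of 14 genes of the Wnt and Norrin signals that switch on the barrier, 0 passed, 10 differences were positive and the median was 0.08.

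Tnfrsf19 (TROY), a Wnt target in brain endothelium that neural progenitors also express, ran from 8.04 to 8.56 in wild type (median 8.37) and from 8.39 to 8.91 in HeCo (median 8.64). A total of 6 HeCo arrays lay above every wild-type array, with HeCo 7 highest and wild type 10 lowest, and the difference was 0.29 (SE 0.08, limma adjusted p = 0.363). Beta-catenin (Ctnnb1), which carries the Wnt signal in most cells, had a difference of 0.20 (SE 0.08, limma adjusted p = 0.648).

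Of 10 genes of TGF-beta and BMP signalling, 0 passed and 4 differences were positive. Id1, a BMP target in endothelium and neural progenitors, ran from 8.33 to 9.03 in wild type (median 8.89) and from 7.93 to 8.76 in HeCo (median 8.53). All 8 HeCo arrays lay under the wild-type mean and 2 under every wild-type array, and the difference was -0.35 (SE 0.11, limma adjusted p = 0.508). The receptor Tgfbr2 had a difference of 0.19 (SE 0.09).

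Further endothelial identity genes (21 tested) had 0 calls, 10 positive differences and a median of -0.01, with Mmrn2, a matrix protein of the endothelial surface, at -0.24 (SE 0.10) and the tetraspanin Tspan18 at 0.20 (SE 0.09). Further barrier junction and carrier genes (12 tested) had 0 calls, 9 positive differences and a median of 0.07, with the glutamine carrier Slc38a5 at 0.10 (SE 0.08) and the junction scaffold Tjp1 (ZO-1) at 0.15 (SE 0.13). Further mural genes (16 tested) had 0 calls, 7 positive differences and a median of -0.01. The Notch target Heyl was at 0.24 (SE 0.10) and the basement membrane collagen Col4a1 at 0.09 (SE 0.11). The Heyl probe was dim, with means of 4.81 in wild type and 5.06 in HeCo. These lie under the means of Tie1 (5.15 and 5.24), a gene near the detection limit.

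**Figure D5:**
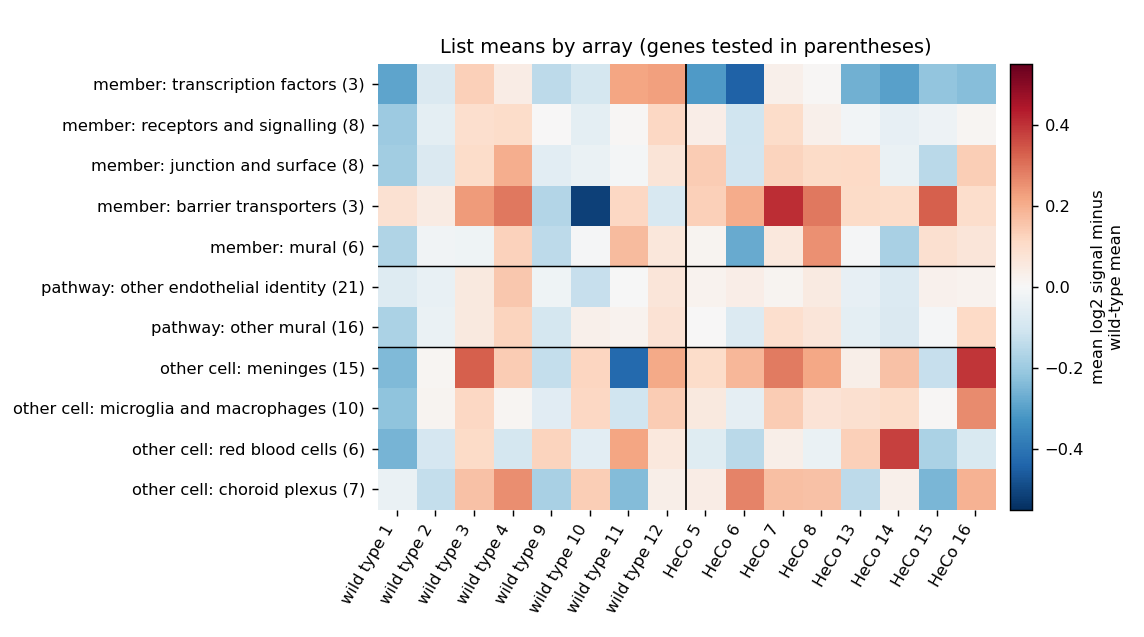
Mean log2 signal minus the wild-type mean (colour, blue lower and red higher) of each list of genes (rows, with the number tested) on each of the 16 arrays (columns, wild type left of the line). The barrier carriers lie between 0.10 and 0.41 on HeCo arrays and between -0.51 and 0.29 on wild-type arrays. The SoxF list of 3 transcription factors lies between -0.45 and 0.03 on HeCo arrays.

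Marker lists of other cells were read beside the members. The meningeal list (15 genes tested) had a mean difference of 0.16, with array means of -0.43 to 0.33 in wild type and -0.13 to 0.39 in HeCo, 12 of 15 differences positive and 0 calls. The microglial list (10 tested) had a mean of 0.08 and array means of -0.22 to 0.14 in wild type and -0.05 to 0.26 in HeCo. The choroid plexus list (7 tested) had a mean of 0.06 and the red blood cell list (6 tested) one of 0.00383. The red blood cell differences ran from -0.21 to 0.18. Their lowest within-group SD was 0, so the list holds a gene that did not vary within either genotype. The list of astrocytes and radial glia (10 tested) had a mean of -0.10, with 8 of 10 differences negative and array means of -0.15 to 0.15 in wild type and -0.33 to 0.01 in HeCo. The oligodendrocyte lineage list (6 tested) had a mean of 0.07. The list of diencephalon, midbrain and hindbrain (17 tested) had a mean of -0.61, with all 17 differences negative and 0 calls. Its array means ran from -0.46 to 0.32 in wild type and from -2.41 to 0.16 in HeCo. That mean of -0.61 includes HeCo 7 and HeCo 16, which stood apart as low on these genes. At an unadjusted limma p under 0.05, where 7.22% of all genes stood, the oligodendrocyte list had 2 of 6 genes, both higher in HeCo. The meningeal list had 3 of 15 and the microglial list 1 of 10, all higher. The astrocyte and radial glia list had 1 of 10 and the region list 4 of 17, all lower. On HeCo 7 the 3 barrier carriers had a mean of 0.41 and on HeCo 16 of 0.10 against wild type, and the 29 members 0.10 and 0.02. The part of these other cells, and of the arrays low in region markers, in the member values was not tested beyond leaving the arrays out.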

How the data were processed

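RNA of 16 mouse brain samples, 8 HeCo and 8 wild type by title and genotype label, was measured on 1-colour Illumina bead arrays. The table deposited by the authors holds 45281 probes, with 2 columns for every array, a signal and a detection p-value. The signals the authors deposited are intensities on a linear scale with no background subtraction or normalization visible in the values. GenomeStudio had been used per the submitters' processing notes, and which version is not given in the sources used here. Intensities in the authors' series matrix match a quantile normalization of these signals to within 0.00474 on the log2 scale, and served as an alternative.

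In R 4.3.3 with limma 3.58.1, the deposited signals were corrected with neqc (offset 16, with negative control levels derived from detection p-values), which gives log2 values. The filter on detection (p under 0.05, 8 or more of 16 arrays) left 18532 probes. The platform annotation names 1 gene symbol for 34885 probes, several for 18 and none for 10378. Symbols were updated through Entrez identifiers with a RefSeq table of GRCm38.p6. The kept probe with the highest mean stood for a gene, which gave 10624 genes tested and 39 kept member probes.

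The genotypes were compared with limma's lmFit and eBayes (with trend, no covariate), with Benjamini-Hochberg adjustment over all genes at 0.05. All p-values are two-sided. Correlations used deviations from group means and 100000 permutations within groups; the pair of Kdr and Flt1 was left out since Kdr was not tested. All 36 members are named, and of each pathway list the genes past the threshold or, with none, those with the 2 smallest p-values. Members and lists were chosen with earlier results of these data known. The number of arrays limits the precision. The limma fit was tested on simulated normal values, and the other steps were not tested on simulated data. Figures used matplotlib 3.10.9 under Python 3.11.15.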

Additional observations from a re-analysis of the deposited data

Results flagged for a closer look

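A total of 5 values lay apart from the other 7 arrays of their group, with a gap to the nearest array, as a share of the group's range, past Dixon's 95% critical value. In 58 groups of 8 arrays (29 genes and both genotypes), chance is set to give such a value in about 5% of groups. Wild type 1 was low for Ramp2 (10.0 on the log2 scale, nearest array 10.5). Wild type 10 was low for Slc2a1 (10.8, nearest 11.5) and high for Cspg5 (10.8, nearest 10.1). HeCo 7 was high for Slco1c1 (6.22, nearest 5.82), and HeCo 14 was low for Rgs5 (5.41, nearest 5.91).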

How the results depend on the processing

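Under 32 alternatives, 0 members passed the adjusted limma threshold, and 817 of 926 member values kept their sign; 9 of 29 members never changed sign. These 9 were Sox18, Sox7, Slc2a1, Slco1c1, Tie1, Eng, Cdh5, Emcn and Ly6c1. Slc2a1 lay between 0.18 and 0.43 and Slco1c1 between 0.11 and 0.39. Leaving out each array in turn gave -0.36 to -0.26 for Sox18 and 0.20 (without wild type 10) to 0.35 for Slc2a1, and 3 to 5 members at an unadjusted p under 0.05. That count was 1 among title numbers 1 to 8 and 0 among description numbers 9 to 16, where fewer arrays enter. Abcc9 was -0.13 among description numbers 1 to 8 and 0.23 among 9 to 16. Among title numbers 1 to 8 and 9 to 16, Cdh5 was 0.32 and 0.01, Eng -0.00307 and -0.19 and Mfsd2a -0.06 and 0.15. The causes were not tested. Calls over all genes (6) were 10 with the mean of all kept probes, 1 and 2 within the title runs 1 to 8 and 9 to 16, 2 and 1 within the description runs, 3 without wild type 1 and wild type 10 (chosen after seeing the data, as was leaving out wild type 10 with HeCo 7 and HeCo 16) and 2 to 7 without single arrays. Of 8 correlated pairs, 0 passed as reported, 1 without HeCo 7 and HeCo 16, and 2 without background correction. No paired analysis was possible because title numbers are not shared between the genotypes. Probes near background (Kdr, Flt4, Erg, Abcb1a, Abcg2, Anpep) leave those genes without a value.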
